A study of Mus musculus with 30 samples.

Results

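T cell genes were followed across preparations of CD11b+ cells, a myeloid population, by 9 transcripts: the CD3 chains Cd3d, Cd3e and Cd3g, the costimulatory receptor Cd28, the coreceptor chains Cd8a and Cd8b1, the surface glycoprotein Thy1, the kinase Zap70 and the interleukin-7 receptor chain Il7r. Each was taken by its symbol in the platform annotation, through its probe set of highest mean over all 30 arrays among those annotated to 1 symbol. They are 9 of 18194 genes that have such a probe set, out of 45101 probe sets on the array. CD11b+ cells were enriched with magnetic beads from 10 sources, with 3 arrays each. In C57BL/6 mice the sources were the infiltrates of EL-4 tumors (a T lymphoma line) and of MCA203 tumors (a fibrosarcoma line), set against healthy spleen. In BALB/c mice they were the infiltrate and the spleen of animals bearing C26-GM (a colon carcinoma line engineered to release GM-CSF) and the infiltrate of 4T1 tumors (a mammary carcinoma line), set against healthy spleen. BALB/c marrow kept for 4 days in GM-CSF with either IL-6 or G-CSF was set against fresh marrow. The healthy C57BL/6 arrays carry that strain in their titles and strain field, but BALB/c in another label. On them H2-Ea, an MHC class II gene that C57BL/6 mice do not express, read 6.60, 6.93 and 6.89, against 12.81, 12.97 and 13.05 in healthy BALB/c spleen, so they were kept under their titles. The labels do not say whether the 3 arrays of a group came from separate animals, and p-values measure only the spread between these arrays, which may be technical.

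The T cell receptor recognises peptide on MHC molecules but cannot signal by itself. It is assembled with the CD3 chains, whose cytoplasmic motifs are phosphorylated on engagement and then bind ZAP-70, while CD8 holds MHC class I and CD28 supplies the costimulatory signal. Thy-1 is carried by mouse T cells and also by fibroblasts and other stromal cells, and the IL-7 receptor alpha chain keeps naive and memory T cells alive and also pairs with the TSLP receptor outside the T lineage. Integrin alpha M, the CD11b protein, is a marker of granulocytes, monocytes and macrophages, and also of most NK cells and some activated T cells.

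The CD3 genes lie close together on chromosome 9, and Cd3g and Cd3d are transcribed away from each other from start sites 1355 bases apart, while the start of Cd3e lies 27825 bases from that of Cd3d. Their promoters are shown because the results below turn on how differently the probe sets of these neighbours read. That of Il7r is shown because it departed from the rest. RefSeq windows (GRCm38.p6, 250 bases before to 50 after the start) were found for 6 of the 9 genes, the others being Cd28, Cd8b1 and Thy1. The positions, 5′ to 3′ on the strand of the gene, are chr9:44980382-44980681 (minus) for Cd3g, chr9:44981536-44981835 (plus) for Cd3d, chr9:45009562-45009861 (minus) for Cd3e and chr15:9529827-9530126 (minus) for Il7r. Capitals mark matches on either strand to letters of motifs known from T cell gene regulation. For RUNX factors TGTGGT was searched. For ETS factors the letters were AGGAAG, and for GATA factors they were AGATAA. The E-box searched was CAGCTG. For TCF and LEF factors CTTTGA was used, and in these windows no match overlaps another.
Cd3g: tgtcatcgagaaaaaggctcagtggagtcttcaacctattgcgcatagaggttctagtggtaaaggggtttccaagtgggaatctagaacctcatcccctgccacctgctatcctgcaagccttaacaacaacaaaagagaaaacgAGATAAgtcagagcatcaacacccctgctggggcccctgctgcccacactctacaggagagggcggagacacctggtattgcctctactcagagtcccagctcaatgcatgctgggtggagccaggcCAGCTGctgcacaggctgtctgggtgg
Cd3d: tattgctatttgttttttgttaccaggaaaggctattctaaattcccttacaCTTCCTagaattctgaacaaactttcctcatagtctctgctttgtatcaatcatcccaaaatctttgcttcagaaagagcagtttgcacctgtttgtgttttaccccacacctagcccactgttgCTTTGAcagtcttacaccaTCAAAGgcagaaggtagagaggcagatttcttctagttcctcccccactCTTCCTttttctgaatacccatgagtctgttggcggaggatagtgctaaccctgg
Cd3e: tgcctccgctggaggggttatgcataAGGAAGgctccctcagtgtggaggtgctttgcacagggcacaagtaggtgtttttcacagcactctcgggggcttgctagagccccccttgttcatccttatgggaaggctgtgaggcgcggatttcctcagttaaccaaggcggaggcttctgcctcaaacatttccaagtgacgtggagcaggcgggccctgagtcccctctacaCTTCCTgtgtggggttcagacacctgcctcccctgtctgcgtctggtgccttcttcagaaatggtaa
Il7r: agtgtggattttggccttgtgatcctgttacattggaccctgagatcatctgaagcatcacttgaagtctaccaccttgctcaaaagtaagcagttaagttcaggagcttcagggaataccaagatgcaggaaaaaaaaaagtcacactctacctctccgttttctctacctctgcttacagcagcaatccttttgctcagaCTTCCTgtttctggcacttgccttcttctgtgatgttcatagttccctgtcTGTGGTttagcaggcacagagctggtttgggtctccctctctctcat
The Cd3d window held 2 ETS and 2 TCF/LEF matches and the Cd3e window 2 ETS matches. The neighbouring Cd3g window held neither of these letters, but 1 GATA and 1 E-box match, and the Il7r window had 1 RUNX and 1 ETS match. Over 32851 promoter windows of this length, 16.8% held the RUNX letters, 35.4% the ETS letters, 11.2% the GATA letters, 16.3% the E-box letters and 16.0% the TCF/LEF letters. Such matches describe the sequence and are not measured binding sites.

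Values are log2 RMA expression as deposited, in which 1 unit is a doubling of the estimated signal. Levels of different probe sets cannot be set against each other, so every comparison is within a gene. Array medians lay between 4.85 and 5.15, and arrays of a group correlated at 0.941 to 0.995 over all probe sets. Itgam, which encodes CD11b, averaged 9.50 to 10.82 in the 10 groups. The culture groups each held 2 arrays with a narrower spread of values (SD 1.96 to 1.98) than the other 26 arrays (SD 2.06 to 2.28), which bears on the culture comparisons below. The third array of each C26-GM group also stood apart, with Itgam at 9.15 in the tumor, against 11.61 and 11.25 on the other arrays. A gene was counted as risen or fallen at an adjusted p below 0.05 and a change of at least 2-fold, in a limma fit of all 10 groups with Benjamini-Hochberg adjustment over 18194 genes. The number of arrays limits the precision. In bulk preparations such as these, fewer cells of a type and less RNA per cell cannot be told apart.

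**Figure D1:**
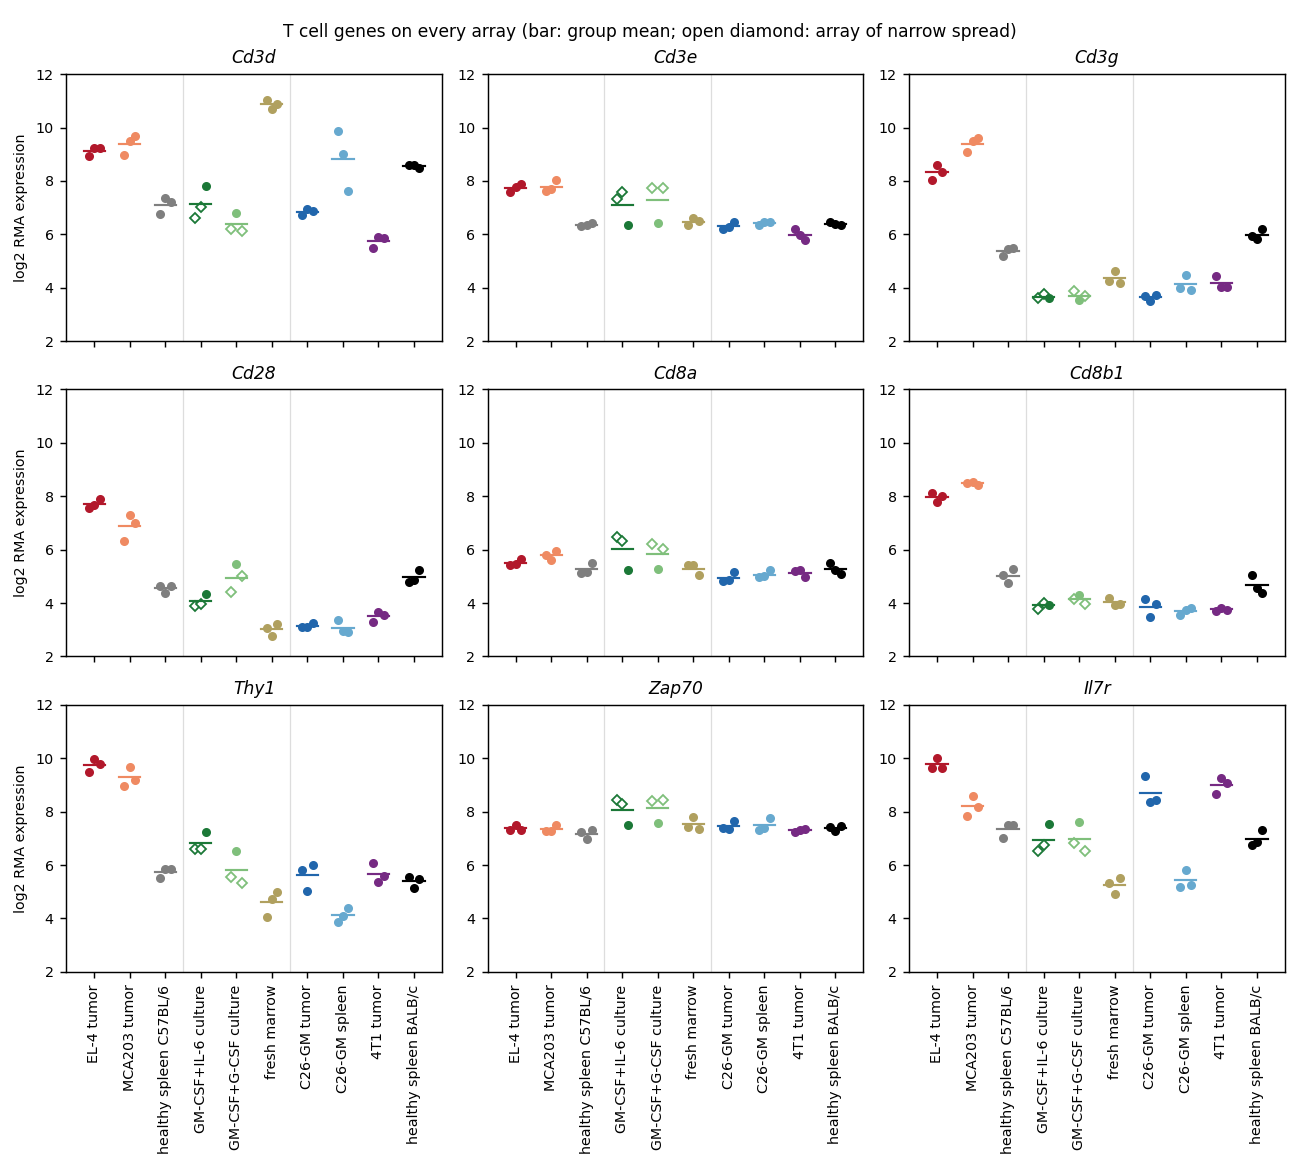
Log2 RMA expression of the 9 T cell genes (vertical axis) on every array, by group (horizontal axis). Points are arrays, bars are group means and open diamonds mark the 4 culture arrays of narrow spread. Cd3g, Cd28, Cd8b1 and Thy1 stand highest in the EL-4 and MCA203 infiltrates, while Cd3d is highest in fresh marrow and Cd8a and Zap70 are nearly level outside the cultures.

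CD11b+ preparations from the EL-4 and MCA203 tumors carried more transcript of most of the 9 T cell genes than those from healthy C57BL/6 spleen. EL-4 is itself a T lymphoma line, and whether its tumor cells contributed to the EL-4 values was not tested. In EL-4 infiltrates 7 of the 9 genes rose and none fell, where 6.42% of all genes tested rose and 4.40% fell. In MCA203 infiltrates 6 of the 9 rose and none fell, against 5.01% of all genes that rose and 5.42% that fell. The 9 genes had a median difference of 2.42 in EL-4 infiltrates and 2.27 in MCA203 infiltrates, and all 18194 genes had medians of 0.02 and 0.14. Of all genes called in the EL-4 comparison 59.3% had risen, and 43.2% when each array was centred on 9 housekeeping genes. That centring moved the median of all genes to -0.17 in EL-4 and 0.15 in MCA203 infiltrates and changed no call of the 9 genes in either.

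Among the CD3 chains, Cd3g read 8.03, 8.60 and 8.35 in EL-4 infiltrates and 9.08, 9.50 and 9.62 in MCA203 infiltrates, against 5.18, 5.45 and 5.48 in healthy C57BL/6 spleen. All 6 tumor arrays lay far above the spleen arrays, and the MCA203 arrays lay above those of EL-4 with no overlap. The rise was 2.96 ± 0.18 (SE) in EL-4 infiltrates (adjusted p = 2.18e-12) and 4.03 ± 0.18 in MCA203 infiltrates (adjusted p = 2.50e-15), which is 7.76-fold and 16.3-fold. Cd3d read 8.95, 9.22 and 9.24 in EL-4 infiltrates and 8.98, 9.49 and 9.69 in MCA203 infiltrates, against 6.77, 7.34 and 7.23 in healthy C57BL/6 spleen. Both tumor groups lay above the spleen and overlapped each other, with rises of 2.02 ± 0.34 (adjusted p = 5.59e-05) and 2.27 ± 0.34 (adjusted p = 1.13e-05). Cd3e, whose product is needed for the whole CD3 complex to reach the surface, rose less on its probe set. It read 7.57, 7.76 and 7.88 in EL-4 infiltrates and 7.61, 7.68 and 8.03 in MCA203 infiltrates, against 6.31, 6.35 and 6.42 in healthy C57BL/6 spleen, rises of 1.38 ± 0.26 and 1.41 ± 0.26 (adjusted p = 0.000212 and 0.000155).

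The CD8 coreceptor pair split by probe set. Cd8b1, whose beta chain is confined to conventional CD8 T cells and their precursors more tightly than the alpha chain, read 8.11, 7.78 and 8.02 in EL-4 infiltrates and 8.51, 8.54 and 8.41 in MCA203 infiltrates, against 5.06, 4.75 and 5.27 in healthy C57BL/6 spleen. It rose by 2.94 ± 0.18 in EL-4 infiltrates (7.66-fold, adjusted p = 1.27e-12) and by 3.46 ± 0.18 in MCA203 infiltrates (11.0-fold, adjusted p = 2.22e-14), and no tumor array overlapped the spleen. The alpha chain gene Cd8a, also expressed by a subset of dendritic cells, did not pass on the probe set that the selection picked, with differences of 0.24 ± 0.24 and 0.52 ± 0.24 (adjusted p = 0.556 and 0.128). That probe set, 1440164_x_at, has the highest mean of 5 for the gene, and the other 4 all rose in both tumors. Probe set 1451673_at averaged 6.77 ± 0.10 in EL-4 infiltrates and 8.55 ± 0.18 in MCA203 infiltrates, against 4.90 ± 0.24 in healthy C57BL/6 spleen (SD, n = 3 each). Over these 4 probe sets the rise ran from 1.22 to 2.26 in EL-4 infiltrates and from 1.74 to 3.76 in MCA203 infiltrates.

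Zap70, the kinase that docks on phosphorylated CD3 chains, showed the same disagreement. Its selected probe set, 1439749_at, averaged 7.37 ± 0.11 in EL-4 infiltrates and 7.35 ± 0.15 in MCA203 infiltrates, against 7.17 ± 0.16 in healthy C57BL/6 spleen (SD, n = 3 each), and did not pass in either. A lower reading probe set of the gene, 1422701_at, averaged 6.36 ± 0.23 and 6.40 ± 0.22 in those infiltrates, against 4.52 ± 0.37 in healthy C57BL/6 spleen. On it Zap70 rose by 1.84 ± 0.23 in EL-4 and 1.88 ± 0.23 in MCA203 infiltrates (adjusted p = 1.02e-06 and adjusted p = 7.45e-07, over all probe sets). The third, 1440178_x_at, differed by 0.08 and 0.79 and did not pass. Which probe sets measure the transcripts of these genes was not tested, and the counts of 7 and 6 genes rest on the selected ones. Averaging all probe sets of a gene brought Cd8a past the threshold in both tumors, with rises of 1.43 in EL-4 and 2.54 in MCA203 infiltrates.

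**Figure D2:**
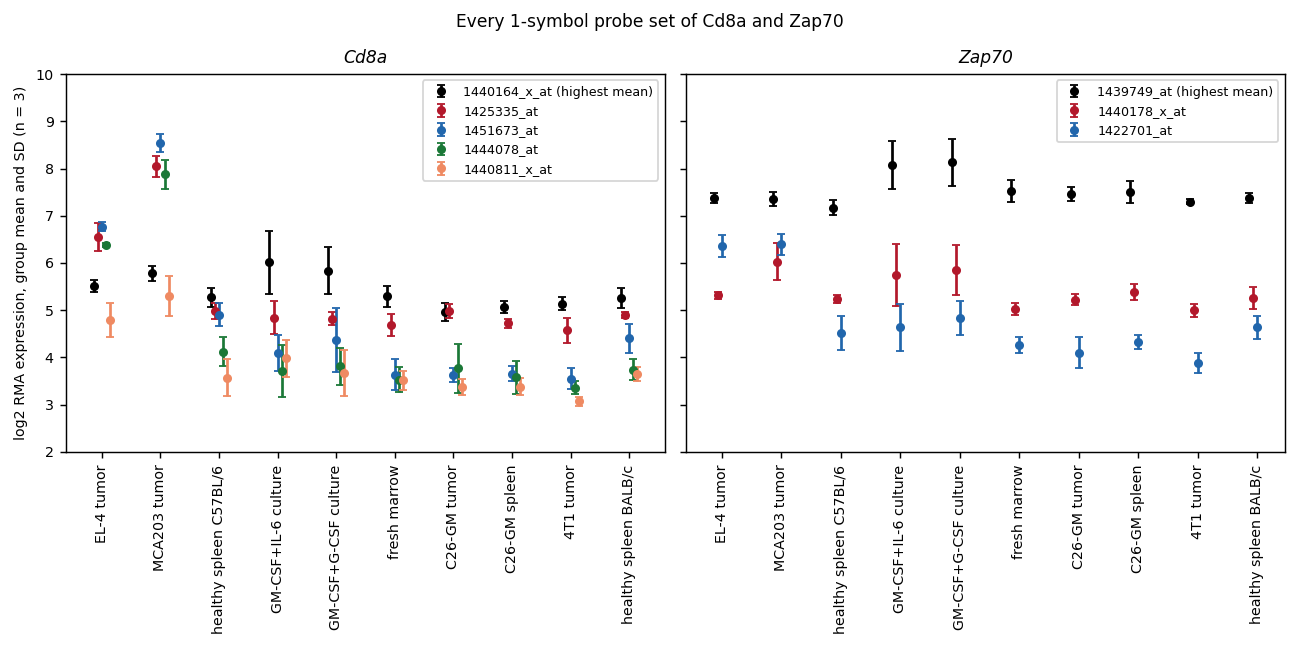
Group means of log2 RMA expression (vertical axis, bars are SD over 3 arrays) for every probe set annotated to Cd8a alone or Zap70 alone, by group (horizontal axis). The selected probe sets, in black, stay level in the EL-4 and MCA203 infiltrates, where 4 other Cd8a probe sets and Zap70 1422701_at stand above all other groups, and the black ones read higher in the cultures.

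The receptors completed the picture in these infiltrates. Thy1 read 9.50, 9.98 and 9.79 in EL-4 infiltrates and 8.98, 9.68 and 9.18 in MCA203 infiltrates, against 5.51, 5.85 and 5.86 in healthy C57BL/6 spleen. It had the largest rise of the 9 genes in EL-4 infiltrates, 4.02 ± 0.30 or 16.2-fold (adjusted p = 5.66e-11), and rose by 3.54 ± 0.30 in MCA203 infiltrates (adjusted p = 4.36e-10). Cd28 read 7.57, 7.66 and 7.89 in EL-4 infiltrates and 6.34, 7.31 and 6.99 in MCA203 infiltrates, against 4.62, 4.39 and 4.66 in healthy C57BL/6 spleen. Every tumor array lay above every spleen array, and Cd28 rose by 3.15 ± 0.23 in EL-4 (adjusted p = 4.05e-11) and by 2.33 ± 0.23 in MCA203 infiltrates (adjusted p = 8.54e-09). Its second probe set, 1437025_at, rose by 2.62 in EL-4 and 1.44 in MCA203 infiltrates. Il7r read 9.64, 10.03 and 9.63 in EL-4 infiltrates and 7.84, 8.59 and 8.19 in MCA203 infiltrates, against 7.01, 7.50 and 7.52 in healthy C57BL/6 spleen. It rose by 2.42 ± 0.30 in EL-4 infiltrates (adjusted p = 5.01e-07), and its difference of 0.86 ± 0.30 in MCA203 infiltrates (adjusted p = 0.0349) was under 2-fold.

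Set directly against MCA203 infiltrates, EL-4 infiltrates differed in 2 of the 9 genes, 1 each way, where 3.88% of all genes rose and 1.40% fell. Il7r was higher in EL-4 by 1.56 ± 0.30 (adjusted p = 0.000538), and Cd3g was lower by -1.08 ± 0.18 (adjusted p = 0.000137), with no overlap of arrays in either gene. The Cd3g call depended on single arrays, since its difference was -0.93 without the first EL-4 array and -0.97 without the third MCA203 array, under 2-fold in both cases, and -0.95 with array weights. Of the 5 Cd8a probe sets, 3 were also lower in EL-4, by -1.50 to -1.78, and averaging the probe sets gave -1.11 for that gene. Of all genes called in this comparison 73.5% were higher in EL-4, and 49.9% when arrays were centred on housekeeping genes, which moved the median of all genes from -0.08 to -0.27. The Il7r and Cd3g calls held under that centring.

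Other genes of the T cell program moved with them only in part. Of all genes 6.42% rose and 4.40% fell in EL-4 infiltrates, and 5.01% rose and 5.42% fell in MCA203 infiltrates. Of 17 measured genes of T cell receptor signalling, 4 rose and none fell in EL-4 infiltrates, with a list median of 0.76, and 7 rose and none fell in MCA203 infiltrates, with a median of 0.87. In EL-4 infiltrates these were the adaptor Lat (2.01 ± 0.19), the adaptor Skap1 (1.82 ± 0.17), the SLAM adaptor Sh2d1a (1.74 ± 0.22) and the zeta chain Cd247 (1.69 ± 0.21, SE). In MCA203 infiltrates the largest were the adhesion receptor Cd96 (1.95), Sh2d1a (1.93), Skap1 (1.66) and the Tec family kinase Txk (1.47). Of 11 measured costimulatory and checkpoint receptors, 5 rose in EL-4 infiltrates and none fell, and in MCA203 infiltrates 4 rose and 1 fell. The inhibitory receptors Pdcd1 (3.38 in EL-4 and 3.69 in MCA203 infiltrates) and Ctla4 (2.87 and 3.63) led that list, followed by the costimulators Tnfrsf9 (2.20 and 2.22) and Cd27 (2.19 and 1.71).

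Of 9 measured cytokine and homing receptors of T cells, 4 rose and none fell in EL-4 infiltrates, while 2 rose and 3 fell in MCA203 infiltrates. Cxcr6, a chemokine receptor of tissue T cells and NK cells, rose by 3.79 in EL-4 and 5.21 in MCA203 infiltrates, and the IL-2 receptor beta chain Il2rb by 2.48 and 2.98. In MCA203 infiltrates the lymph node homing receptor Ccr7 (-2.85) and the egress receptor S1pr1 (-1.29) fell. Of 11 T lineage transcription factors, Gata3 (3.76) and Tox (2.32) rose in EL-4 infiltrates and Satb1 fell by 1.22. In MCA203 infiltrates Tox rose by 2.95 and Satb1 fell by 2.53. Directly compared, Gata3 was higher in EL-4 than in MCA203 infiltrates by 2.77 and the coreceptor Cd4 by 1.16, and Cxcr6 was lower by -1.42. Of 7 measured thymocyte genes none rose in either infiltrate, while 1 fell in EL-4 and 2 fell in MCA203 infiltrates. Cd1d1 fell in both (-1.89 in EL-4 and -2.76 in MCA203 infiltrates).

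Markers of other cells moved too, and their part in the T cell gene differences was not tested. Of 7 NK cell markers, 4 rose and 1 fell in EL-4 infiltrates, and 3 rose and none fell in MCA203 infiltrates. The list averaged up to 8.40 over the EL-4 arrays and 8.56 to 9.13 over the MCA203 arrays, against 7.23 to 7.56 in healthy C57BL/6 spleen, and no tumor array reached down to the spleen arrays. Nkg7 and Prf1, which T cells also use for killing, led this list at 2.35 and 2.18 in EL-4 and 3.05 and 3.44 in MCA203 infiltrates. Fibroblast markers, relevant to Thy1, rose in 5 of 8 cases in EL-4 and 4 of 8 in MCA203 infiltrates, with Col3a1 up by 6.20 and 6.17. That list averaged 6.25 to 6.65 over the EL-4 arrays and 5.77 to 6.36 over the MCA203 arrays, against 4.29 to 4.46 in healthy C57BL/6 spleen. B cell markers fell in 8 of 9 cases in both infiltrates. Of the 12 myeloid markers 2 rose and 3 fell in EL-4 infiltrates (median 0.03) and 1 rose and 3 fell in MCA203 infiltrates (median -0.25). They averaged 10.81 to 11.01 over the EL-4 arrays and 10.72 to 10.94 over the MCA203 arrays, against 11.59 to 11.66 in healthy C57BL/6 spleen, and the largest changes, both in granulocyte genes, were those of S100a9 (-4.85 in EL-4 and -4.38 in MCA203 infiltrates) and S100a8 (-4.41 and -4.17).

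**Figure D3:**
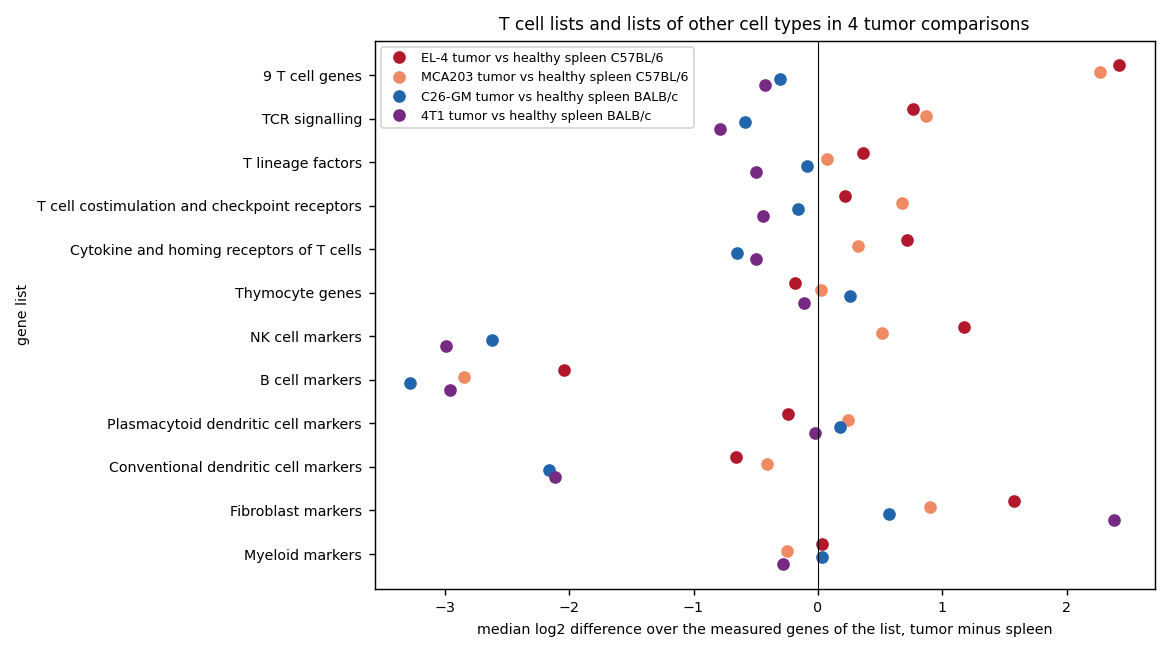
Median log2 difference (horizontal axis) over the measured genes of each list (vertical axis) in 4 tumor comparisons, each tumor minus healthy spleen of its strain, as colored points. The 9 T cell genes sit above 2 in EL-4 and MCA203 infiltrates and below 0 in the C26-GM and 4T1 infiltrates, NK cell markers split the same way, and B cell markers are below -2 in all 4.

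In BALB/c tumor preparations fewer of the 9 genes passed, and most of those that did were lower than in healthy BALB/c spleen. C26-GM infiltrates showed 3 genes lower and 1 higher than healthy BALB/c spleen, where 7.13% of all genes fell and 4.26% rose. In 4T1 infiltrates 3 fell and 1 rose, against 5.44% and 6.83% of all genes. In the spleens of C26-GM bearing mice 4 fell and none rose, against 3.83% and 2.32% of all genes. The median of the 9 genes was -0.31 in C26-GM infiltrates, -0.97 in C26-GM spleens and -0.42 in 4T1 infiltrates, and that of all genes 0.11, 0.09 and -0.01. Centring on housekeeping genes moved the C26-GM infiltrate median of all genes to 0.24 and changed no call of the 9 genes in the infiltrates.

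Cd3g fell in all 3 of these preparations. It read 3.69, 3.50 and 3.73 in C26-GM infiltrates, 4.01, 4.49 and 3.91 in C26-GM spleens and 4.44, 4.04 and 4.03 in 4T1 infiltrates, against 5.95, 5.82 and 6.20 in healthy BALB/c spleen. No array of the 3 tumor-bearing groups reached the healthy spleen, and the falls were -2.35 ± 0.18 (adjusted p = 1.05e-10), -1.86 ± 0.18 (adjusted p = 2.95e-08) and -1.82 ± 0.18 (adjusted p = 1.10e-08). Cd28 read 3.12, 3.09 and 3.25 in C26-GM infiltrates, 3.37, 2.96 and 2.92 in C26-GM spleens and 3.29, 3.66 and 3.56 in 4T1 infiltrates, against 4.80, 4.88 and 5.22 in healthy BALB/c spleen. Its falls were -1.81, -1.88 and -1.46 with no overlap, although its second probe set differed by -0.85, -0.90 and -0.63, under 2-fold in each. In the tumor-bearing groups Cd3g and Cd28 read below all array medians (4.85 to 5.15), and no detection calls were used. Cd8b1 differed by -0.81 ± 0.18, -0.97 ± 0.18 and -0.90 ± 0.18, below the 2-fold threshold each time with adjusted p of 0.000907, 0.000247 and 0.000255. Its C26-GM spleen difference crossed 2-fold, at -1.04, without the third C26-GM arrays. Cd3e was not called, with differences of -0.08 in C26-GM infiltrates, 0.02 in C26-GM spleens and -0.42 in 4T1 infiltrates (adjusted p = 0.847, 0.973 and 0.299). No probe set of Cd8a or Zap70 was called in these preparations either.

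Cd3d, the neighbour of Cd3g, fell in both infiltrates but not in the C26-GM spleen. It read 6.72, 6.93 and 6.88 in C26-GM infiltrates and 5.49, 5.89 and 5.86 in 4T1 infiltrates, against 8.59, 8.61 and 8.49 in healthy BALB/c spleen, falls of -1.72 ± 0.34 (adjusted p = 0.000352) and -2.82 ± 0.34 (adjusted p = 3.14e-07). In C26-GM spleens it read 9.86, 9.01 and 7.61, spread on both sides of the healthy spleen, with a difference of 0.26 ± 0.34 (adjusted p = 0.703). Without the third C26-GM arrays that difference was 0.87 (adjusted p = 0.0452), still under 2-fold. Against the C26-GM spleen the C26-GM infiltrate was lower in Cd3d by -1.98 ± 0.34 (adjusted p = 0.000142), and by -2.61 without those arrays.

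Il7r was the exception that rose in both BALB/c infiltrates. It read 9.32, 8.35 and 8.43 in C26-GM infiltrates and 8.68, 9.25 and 9.07 in 4T1 infiltrates, against 6.74, 6.86 and 7.30 in healthy BALB/c spleen. Every infiltrate array was above every spleen array, and the rises were 1.73 ± 0.30 (3.32-fold, adjusted p = 5.75e-05) and 2.03 ± 0.30 (4.09-fold, adjusted p = 5.74e-06). Its second probe set, 1448576_at, moved by 1.32 and 2.43 and passed in both. In C26-GM spleens Il7r fell instead, reading 5.19, 5.83 and 5.25, a difference of -1.55 ± 0.30 (adjusted p = 0.000470). The infiltrate therefore stood 3.28 ± 0.30 above the spleen of the same model (9.71-fold, adjusted p = 7.55e-09).

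Thy1 followed Il7r in that last comparison. It read 5.82, 5.04 and 6.00 in C26-GM infiltrates, against 3.86, 4.10 and 4.38 in C26-GM spleens, a rise of 1.51 ± 0.30 (adjusted p = 0.000582). Fibroblast markers rose there in 1 of 8 cases (Dcn, 2.21), and the part of fibroblasts in the Thy1 differences was not tested. Set against healthy BALB/c spleen, Thy1 differed by 0.23 in C26-GM infiltrates and 0.28 in 4T1 infiltrates and did not pass, and it fell by 1.28 ± 0.30 in C26-GM spleens (adjusted p = 0.00295). Between C26-GM infiltrate and C26-GM spleen 2 of the 9 genes rose and 1 fell, where 2.79% of all genes rose and 3.36% fell. Of all genes called there 45.4% had risen, and 60.0% with housekeeping centring, which moved the median of all genes from 0.00 to 0.18. In the 4T1 infiltrate fibroblast markers rose in 5 of 8 cases, with Col3a1 up by 5.36, and Thy1 read 6.08, 5.37 and 5.57.

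**Figure D4:**
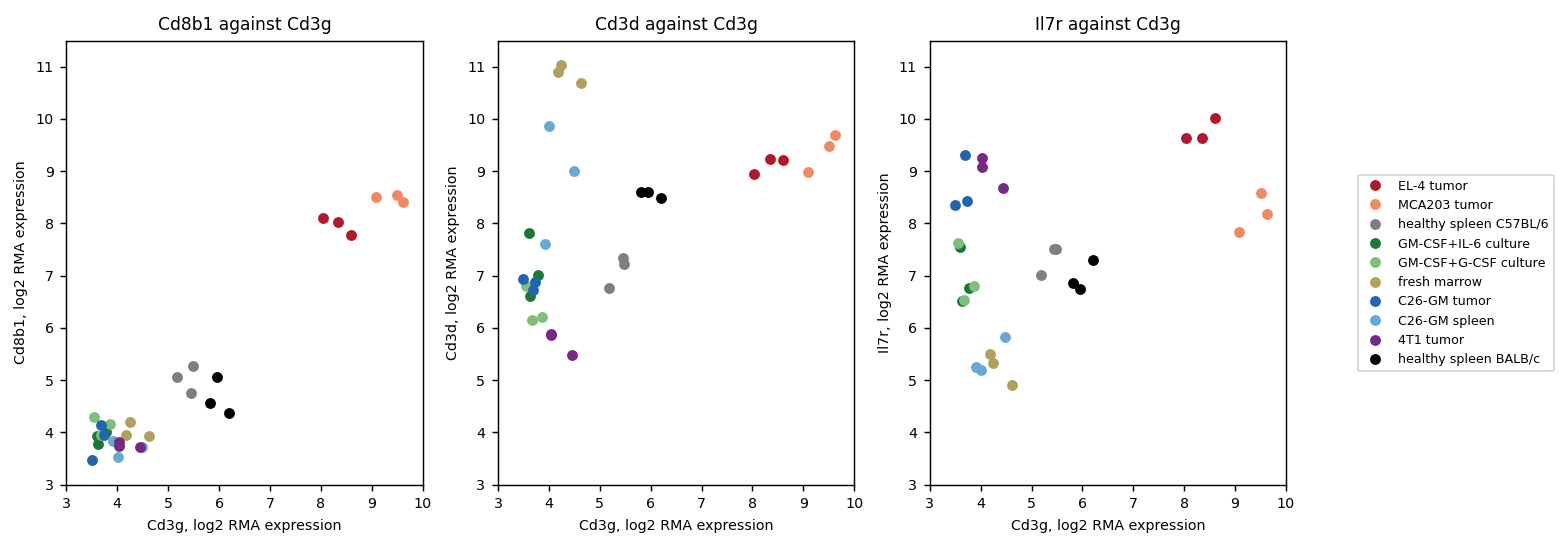
Log2 RMA expression of Cd8b1, Cd3d and Il7r (vertical axes) against Cd3g (horizontal axis) on all 30 arrays, colored by group. Cd8b1 climbs with Cd3g, while fresh marrow stands off in the Cd3d panel and the C26-GM and 4T1 infiltrates stand off in the Il7r panel, all at low Cd3g.

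Among other T cell genes more fell than rose in the BALB/c tumor preparations. Of the 17 receptor signalling genes, 5 fell and none rose in C26-GM infiltrates, 4 fell and 1 rose in C26-GM spleens and 6 fell and none rose in 4T1 infiltrates. The adhesion receptor Cd2 fell in C26-GM (-1.94) and 4T1 infiltrates (-2.17), and so did the inhibitory receptor Cd5 (-1.69 and -1.68). Cd4 fell in C26-GM infiltrates (-1.60), C26-GM spleens (-1.67) and 4T1 infiltrates (-1.90), and so did the factor Tbx21 (-2.35, -1.87 and -2.36). Of the 11 T lineage factors, among them Tbx21, none rose and 3 fell in C26-GM infiltrates, 1 rose (Tox, 1.41) and 2 fell in C26-GM spleens, and 2 rose and 3 fell in 4T1 infiltrates. Of the 11 costimulatory and checkpoint receptors, among them Cd4, 1 rose and 2 fell in C26-GM infiltrates, none rose and 3 fell in C26-GM spleens, and 1 rose and 3 fell in 4T1 infiltrates. Gata3 rose by 2.50 in 4T1 infiltrates and Tnfrsf9 by 1.54 in C26-GM and 2.22 in 4T1 infiltrates, both also used by cells outside the T lineage. NK cell markers fell in 7 of 7 cases in C26-GM infiltrates and 6 of 7 in both other groups, with Gzma down by -5.25 in C26-GM infiltrates, -4.66 in C26-GM spleens and -5.35 in 4T1 infiltrates. B cell markers fell in 8 of 9 cases in each. Of 7 conventional dendritic cell markers 4 fell and none rose in C26-GM and in 4T1 infiltrates, and 2 fell and 1 rose in C26-GM spleens. Of 7 plasmacytoid dendritic cell markers 3 fell in C26-GM infiltrates, 2 fell in C26-GM spleens, and 2 fell and 1 rose in 4T1 infiltrates. The part of these cell types in the falls was not tested.

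**Figure D5:**
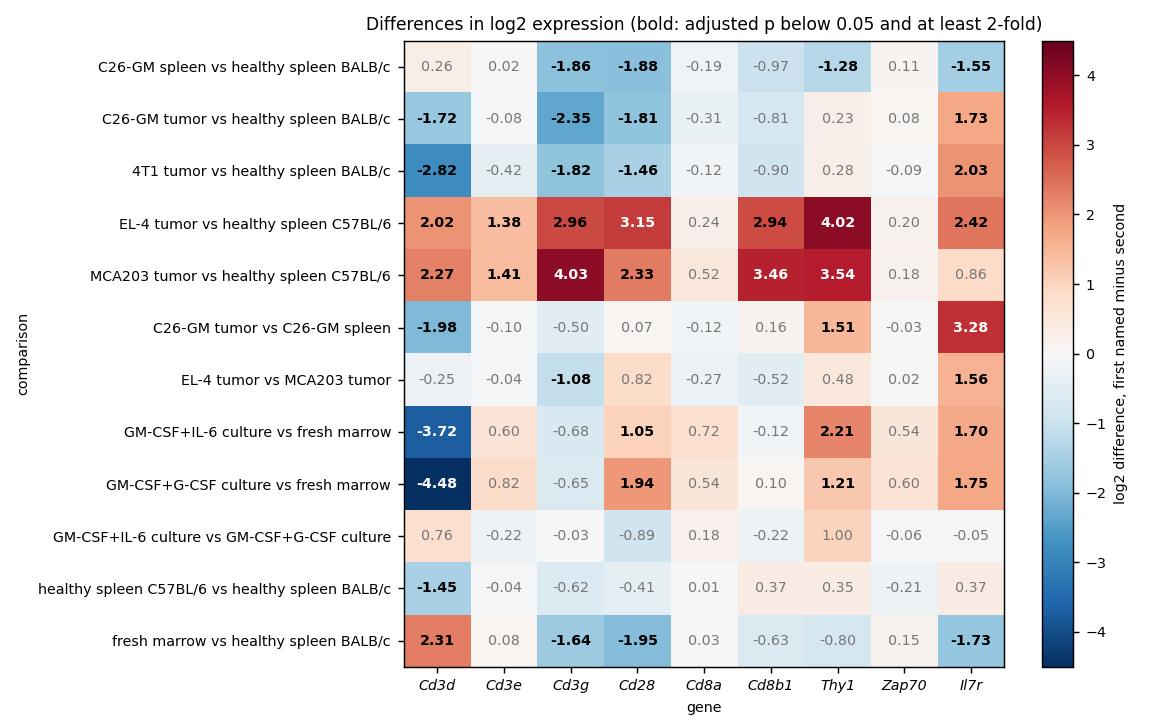
Log2 difference, first named group minus second, for each of the 9 T cell genes (horizontal axis) in the 12 comparisons (vertical axis), with bold values for adjusted p below 0.05 and at least 2-fold. In the EL-4 and MCA203 rows against healthy spleen the cells are red except for Cd8a and Zap70, which are near 0. Blue cells mark Cd3g and Cd28 in the BALB/c tumor rows against healthy spleen, and Cd3d reaches -4.48 in the GM-CSF plus G-CSF culture.

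Whether the tumor effect itself differed between the C57BL/6 and BALB/c models was tested as the mean of EL-4 and MCA203 minus healthy C57BL/6 spleen, less the mean of C26-GM and 4T1 infiltrates minus healthy BALB/c spleen. In this contrast 6 of the 9 genes were higher and none lower, where 2.83% of all genes were higher and 2.11% lower. The differences were 5.58 ± 0.22 for Cd3g (adjusted p = 1.86e-15), 4.42 ± 0.42 for Cd3d (adjusted p = 2.87e-08), 4.38 ± 0.28 for Cd28 (adjusted p = 1.05e-11), 4.05 ± 0.22 for Cd8b1 (adjusted p = 2.28e-13), 3.52 ± 0.36 for Thy1 (adjusted p = 1.03e-07) and 1.65 ± 0.32 for Cd3e (adjusted p = 0.000922). Il7r differed by -0.24 ± 0.37 (adjusted p = 0.884). It was higher than in healthy spleen in all 4 infiltrates, by 2.42 in EL-4, 0.86 in MCA203, 1.73 in C26-GM and 2.03 in 4T1. The selected probe sets of Cd8a (0.59) and Zap70 (0.20) did not pass, whereas Cd8a 1451673_at differed by 3.58 and Zap70 1422701_at by 2.51. Of the 17 receptor signalling genes 11 were higher and none lower, and of the 7 NK cell markers 7 were higher. Of all genes called in the contrast 57.3% were higher, and 41.9% with housekeeping centring, which moved the median of all genes from 0.03 to -0.13. Each tumor line was grown in 1 strain only, so that strain and tumor line cannot be told apart.

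The healthy spleens differed in 1 of the 9 genes, where 0.654% of all genes were higher in C57BL/6 and 0.742% lower. Cd3d read 6.77, 7.34 and 7.23 in healthy C57BL/6 spleen, against 8.59, 8.61 and 8.49 in healthy BALB/c spleen, a difference of -1.45 ± 0.34 (adjusted p = 0.0159). The groups did not overlap, but the call was lost when the first or second BALB/c array or the first C57BL/6 array was left out, with adjusted p of 0.0701, 0.0679 and 0.107. The other 8 genes differed by -0.62 to 0.37. The lower Cd3d level of the C57BL/6 spleen is part of the baseline against which the EL-4 and MCA203 rises of that gene were measured.

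Fresh BALB/c marrow set the Cd3d probe set apart from those of the other CD3 chains. Cd3d read 11.04, 10.69 and 10.89 there, against 8.59, 8.61 and 8.49 in healthy BALB/c spleen, and these 3 arrays were its highest in the whole series. The difference was 2.31 ± 0.34, or 4.95-fold (adjusted p = 6.08e-06). Over the same pair of groups Cd3g read 4.24, 4.62 and 4.18 in marrow, against 5.95, 5.82 and 6.20 in spleen, and was lower by -1.64 ± 0.18 (adjusted p = 6.15e-08). Cd28 (-1.95 ± 0.23) and Il7r (-1.73 ± 0.30) were lower as well, while Cd3e differed by 0.08 ± 0.26 (adjusted p = 0.864). Cd3d, Cd3e and Cd3g each have 1 probe set annotated to the gene alone. A difference between these genes therefore cannot be told from a difference between their probe sets. In all, 1 of the 9 genes rose and 3 fell, where 5.76% of all genes rose and 7.49% fell. Of the 17 receptor signalling genes 1 rose (Ubash3a, a phosphatase of T cells, 1.78) and 6 fell, among them Rasgrp1 (-3.59) and Cd2 (-2.58). NK cell markers rose in 1 and fell in 6 of 7 cases. Housekeeping centring moved the median of all genes here from 0.09 to 0.21.

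After 4 days of culture, Cd3d was far lower than in fresh marrow. It read 6.61, 7.02 and 7.82 with GM-CSF plus IL-6 and 6.22, 6.80 and 6.14 with GM-CSF plus G-CSF, against 11.04, 10.69 and 10.89 in fresh marrow. No culture array came near the marrow arrays, and the falls were -3.72 ± 0.34 (adjusted p = 3.99e-09) and -4.48 ± 0.34 (adjusted p = 1.55e-10), which are 13.2-fold and 22.4-fold lower. Nkg7, a cytotoxic granule gene with the second closest pattern to Cd3d over the groups, changed by -4.59 and -4.60. Of the 7 NK cell markers, which include Nkg7, 1 rose and 2 fell in each culture, with list medians of -0.06 with IL-6 and -0.14 with G-CSF. Cd3g, already low, differed by -0.68 ± 0.18 and -0.65 ± 0.18 and Cd8b1 by -0.12 and 0.10, none of them called.

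The receptors Il7r, Thy1 and Cd28 rose in both cultures. Il7r read 6.51, 6.76 and 7.54 with IL-6 and 6.81, 7.62 and 6.53 with G-CSF, against 5.32, 4.90 and 5.50 in fresh marrow. Both sets lay wholly above the marrow, with rises of 1.70 ± 0.30 and 1.75 ± 0.30 (adjusted p = 6.60e-05 and 4.56e-05). Thy1 read 6.58, 6.60 and 7.25 with IL-6 and 5.55, 6.54 and 5.34 with G-CSF, against 4.07, 4.72 and 5.00 in fresh marrow, rises of 2.21 ± 0.30 and 1.21 ± 0.30 (adjusted p = 1.54e-06 and 0.00211). Fibroblast markers fell in 3 of 8 cases with IL-6 and 4 of 8 with G-CSF over the same arrays, with Col1a2 down by -2.84 and -3.23. The part of fibroblasts in the Thy1 differences was not tested. Cd28 read 3.88, 3.96 and 4.35 with IL-6 and 4.41, 5.45 and 5.01 with G-CSF, against 3.06, 2.77 and 3.22 in fresh marrow, rises of 1.05 ± 0.23 and 1.94 ± 0.23 (adjusted p = 0.000715 and 2.22e-07). Each cocktail thus had 3 genes that rose and 1 that fell, where with IL-6 5.00% of all genes rose and 9.07% fell and with G-CSF 4.48% rose and 9.37% fell. With IL-6 the second probe sets of Il7r (1.16, adjusted p = 0.0583) and Cd28 (0.78, under 2-fold) were not called, whereas with G-CSF both rose (1.72 and 1.18). The Cd28 rise with IL-6 was under 2-fold on the narrow arrays alone, that is without the third IL-6 array (0.90), and without the second marrow array (0.92). It was also under 2-fold with array weights (0.89), renewed quantile normalization (0.90), the mean of all probe sets (0.91) and housekeeping centring (0.94). The Cd28 readings in fresh marrow and with IL-6 lay below all array medians (4.85 to 5.15), and no detection calls were used. The Thy1 rise with G-CSF was under 2-fold on the narrow arrays alone, that is without the second G-CSF array (0.85), without the first marrow array (0.95) and with array weights (0.96).

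Several of the 9 genes split by array set within each culture. Cd3e, Cd8a and Zap70 read higher on the narrow arrays, and Cd3d, Cd28, Thy1 and Il7r lower. With IL-6, Cd3e read 7.31 and 7.59 on the narrow arrays and 6.34 on the other array, and with G-CSF 7.74 and 7.74 on the narrow arrays and 6.43 on the other, against 6.34, 6.60 and 6.50 in fresh marrow. Zap70 read 8.43, 8.30, 8.39 and 8.44 on the narrow arrays and 7.48 and 7.56 on the others, against 7.44, 7.80 and 7.36 in fresh marrow. Cd8a read 6.46, 6.33, 6.20 and 6.03 on the narrow arrays and 5.24 and 5.27 on the others, against 5.42, 5.41 and 5.04 in fresh marrow. For Cd3e, Cd8a and Zap70 the narrow arrays were high and the remaining culture arrays lay within or at the edge of the marrow range. With a term for the array set the Zap70 difference was -0.04 with IL-6 and 0.02 with G-CSF, against 0.54 and 0.60 without it. Il7r showed the opposite split, at 6.51, 6.76, 6.81 and 6.53 on the narrow arrays and 7.54 and 7.62 on the others. Its rise over fresh marrow passed on either set, at 1.39 with IL-6 and 1.43 with G-CSF on the narrow arrays and 2.30 and 2.38 on the others. The origin of the narrow arrays was not tested.

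Set against the G-CSF cocktail, the IL-6 cocktail called none of the 9 genes by limma, where 0.456% of all genes were higher and 0.198% lower. At an unadjusted p under 0.05, 3 genes differed: Cd3d by 0.76 and Thy1 (means 6.81 and 5.81), both higher with IL-6, and Cd28 by -0.89, lower with IL-6 (adjusted p = 0.531, 0.117 and 0.0482). Of these Cd28 passed the adjusted p but was under 2-fold. The Thy1 and Cd28 arrays of the cocktails did not overlap, and those of Cd3d did.

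Over the 10 group means the 9 genes did not share a single pattern, as the plot of Cd3g against other genes shows. Cd3g and Cd8b1 were most alike (Pearson r = 0.971), followed by Cd28 and Cd8b1 (0.922) and by Cd28 and Thy1 (0.906). Cd3g correlated with its neighbour Cd3d at 0.480, Cd3d with Il7r at -0.390 and the selected Zap70 probe set with Cd3g at -0.469. These are descriptions over 10 means in which 2 groups, EL-4 and MCA203, dominate. Without EL-4 the first became 0.964 and the fourth 0.424. MCA203 stayed in, so these values do not show how alike the genes are outside the 2 groups. The levels of Cd3g ran from 9.40 in MCA203 and 8.33 in EL-4 infiltrates through 5.99 in healthy BALB/c and 5.37 in healthy C57BL/6 spleen to 3.64 in C26-GM infiltrates. These first 4 groups were each clear of the next, whereas fresh marrow (4.35), 4T1 infiltrates (4.17) and C26-GM spleens (4.13) overlapped, as did both cultures and C26-GM infiltrates. Cd3d ran from 10.87 in marrow to 5.75 in 4T1 infiltrates, with 6 of 9 neighbouring groups overlapping. Il7r ran from 9.77 in EL-4 infiltrates, clear of 4T1 infiltrates, to 5.24 in marrow, also with 6 of 9 overlaps, and all 9 neighbours overlapped for the selected Cd8a and Zap70 probe sets.

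Among 9925 other genes whose group means spanned at least 1 log2 unit, the closest to Cd3g over the 10 means were the cytotoxic genes Gzmb (r = 0.989) and Prf1 (0.987) and the receptor Klrc1 (0.979). Closest to Cd8b1 were Gzmb (0.988), Cxcr6 (0.983) and Skap1 (0.982), and to Cd28 the zeta chain gene Cd247 (0.956), Skap1 (0.953) and Ppt2 (0.951). Gzmb averaged 10.79 in EL-4 and 11.37 in MCA203 infiltrates, against 6.20 in healthy C57BL/6 spleen. Cd3e had Sprr1a (0.940), the T cell signalling gene Themis (0.938) and Filip1 (0.933), and Thy1 had Gem (0.967), Kif5c (0.957) and Batf2 (0.953). Different genes stood near the members that departed: Galnt10 (0.931), Nkg7 (0.881) and Itih5 (0.876) for Cd3d, and Hook2 (0.948), Pfn2 (0.940) and Procr (0.914), the endothelial protein C receptor, for Il7r. The selected probe set of Zap70 was nearest to LOC432842 (0.991), Pcp4l1 (0.988) and B3galt5 (0.988), and that of Cd8a to Rnf157 (0.941), Serpinb9b (0.926) and Mthfd2 (0.916).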

How the data were processed

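Total RNA from CD11b+ cells was extracted with Trizol, cleaned on columns and hybridized to Affymetrix mouse MOE430 2.0 arrays, per the labels' protocols. The authors deposited log2 values made by RMA (background correction, quantile normalization and probe summary on the log scale), per the submitters' processing notes, with no version stated there. RMA shrinks differences near the bottom of the range, and no detection calls were used. Probe sets were named from the platform annotation: 34958 of 45101 had 1 symbol, 932 several and 9211 none, and 99.8% of those with 1 symbol were found in the RefSeq table (GRCm38.p6). Each of 18194 genes was taken by its probe set of highest mean over all 30 arrays, for Cd8a and Zap70 1 of several that disagree.

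The 10 groups of 3 arrays were fitted together (limma 3.58.1 in R 4.3.3, lmFit and eBayes, 20 residual degrees of freedom), with 12 comparisons and 1 contrast of tumor effects. A call needed a Benjamini-Hochberg adjusted p below 0.05 over all genes and at least 2-fold. Alternatives were housekeeping centring, renewed quantile normalization, other probe set choices, a filter on dim genes, array weights, a replicate block, other thresholds and leaving out arrays. The fits with the culture array sets were chosen after seeing the data. Members were described also by the 3 genes of highest correlation over group means, and other lists by up to 4 (T cell lists) or 2 (other cell types) called genes of largest change. The 9 genes, all lists and H2-Ea as a check of strain were chosen with earlier results of these data known. The fit was tested on simulated data. Sequences were searched with Python 3.11.15.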

Additional observations from a re-analysis of the deposited data

Results flagged for a closer look

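The tumor effect, tumor minus healthy spleen, differed between the C57BL/6 models (EL-4, MCA203) and the BALB/c models (C26-GM, 4T1) in 6 of the 9 genes by the test of the difference itself. The difference was 5.58 for Cd3g, 4.42 for Cd3d, 4.38 for Cd28, 4.05 for Cd8b1, 3.52 for Thy1 and 1.65 for Cd3e, with strain and tumor line inseparable. EL-4 and MCA203 infiltrates, which share their spleen controls, differed by -1.08 in Cd3g and by 1.56 in Il7r, tested directly.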

How the results depend on the processing

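Over 13 contrasts of 9 genes, no called difference changed direction under any alternative tried. The alternatives other than leaving out a single array gave 1404 gene values, including those without the third C26-GM arrays. Of these, 1335 kept their call and direction, 26 uncalled ones changed direction, 7 lost the call and 36 gained it. Size did not enter this count. For C26-GM against healthy BALB/c spleen, Cd3d counted as kept at 0.87 without those arrays, against 0.26. With a single array left out, 9 of 810 values lost the call and 11 gained it. Counts of called genes changed by over 1.5 times in 5 comparisons. EL-4 against MCA203 infiltrates went to 4 with all probe sets of a gene averaged and to 4 without a minimum fold, against 2, and to between 1 and 3 with an array left out. IL-6 against G-CSF culture had 1 with renewed quantile normalization, with array weights, without a minimum fold and on the narrow arrays only (added later), against 0, and 0 to 1 with an array left out. Each culture against fresh marrow had 7 without a minimum fold, against 4, and 3 to 4 with an array left out. Healthy C57BL/6 against healthy BALB/c spleen had 0 at an adjusted p below 0.01, against 1, and 0 to 1 with an array left out. With an array left out, EL-4 infiltrates kept 7, MCA203 infiltrates 6 to 7, C26-GM infiltrates 4, C26-GM spleens and 4T1 infiltrates 4 to 5, marrow 4, C26-GM infiltrate against spleen 3 and the contrast of tumor effects 6.

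Genes called over the whole array numbered 119 to 2560 over the contrasts, and 226 to 7227 without a minimum fold. Array weights gave 4287 and 3934 for the IL-6 and G-CSF cultures against marrow, and the narrow arrays only 4290 and 4080, against 2560 and 2520. Between the cultures the count of 119 became 2 when only those groups were fitted, 65 at an adjusted p below 0.01 and 37 on the wide arrays. With an array left out it was between 64 and 225, and the cultures against marrow reached 4288 without the third IL-6 array and 4075 without the second G-CSF array. The cause of these shifts was not tested.

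Correlations of the deviations of same-numbered arrays ran from -0.850 to 0.788. Some pairs deviated together, such as the first (0.367) and the third (0.470) arrays of C26-GM infiltrate and spleen, but no comparison had all 3 pairs over 0.1. With the replicate number as a block 0 of 117 calls changed and the counts stayed at 7 in EL-4 and 6 in MCA203 infiltrates. Limits: 3 arrays a group of unstated origin, no detection calls, probe sets of a gene that disagree, and strain joined to tumor line. Further limits are the single probe set of each CD3 gene and the T cell origin of the EL-4 line.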
